A study of Mus musculus with 6 samples.

Results

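The genes described here are 6 transcription factors that drive epithelial-to-mesenchymal transition (Snai1, Snai2, Twist1, Twist2, Zeb1 and Zeb2), the mesenchymal filament gene Vim, and the epithelial splicing regulators Esrp1 and Esrp2. They were chosen by name: a probe set counted if the platform annotation gave it 1 gene symbol and that symbol was among these 9. All 9 genes had at least 1 such probe set, and they were 9 of the 18193 genes so named, with 20 of the 45101 probe sets in the table. Each of 6 arrays held RNA from cells of mouse embryos heterozygous for Noto-GFP, a reporter of the node and notochord homeobox gene Noto, on a mixed 129S3;ICR background of both sexes at embryonic day 8.5. Tissue behind the boundary of somites SI and SII was pooled from 23, 39 or 52 embryos, dissociated with trypsin and sorted, and every pool gave 1 array of GFP-positive cells and 1 array of GFP-negative cells. GFP-positive cells thus stand for the reporter's activity in about 2600, 4300 and 6600 sorted cells, and GFP-negative cells for a mixture of all other dissociated tissue of the same region. The comparison asks how GFP-positive cells differ from those GFP-negative neighbours in this set of genes.

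In an epithelial-to-mesenchymal transition, cells lose junctions and polarity and become migratory. Snail and Zeb zinc finger proteins bind E-box sequences and repress epithelial genes such as the cadherin gene Cdh1, Twist basic helix-loop-helix proteins act beside them, and Esrp proteins favour the exons used in epithelial cells. In the gastrulating mouse embryo mesoderm forms through such a transition at the primitive streak, whereas node and notochordal plate cells lie in an epithelial sheet.

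With 3 arrays a group, the number of arrays sets the precision. The median intensity of an array was 19.8 to 28.0, so a value near these may be background. Both arrays of pool 1 stood apart in the 3′ over 5′ signal ratio of the Gapdh control. It was 14.0 on the GFP-positive and 15.4 on the GFP-negative array, and 1.604 to 2.22 on the other 4. Pool 1 was also the smallest, at 23 embryos, so RNA quality and the amount of RNA cannot be told apart here. Over all tested probe sets, the 2 arrays of pool 1 correlated at 0.964, whereas the GFP-negative array of pool 1 reached only 0.938 and 0.914 with those of pools 2 and 3. Of 13 measured node and notochord genes, 10 were higher in GFP-positive cells, against 2.95% of all genes. Foxa2, Nodal and Bicc1 had the smallest p in limma (3.64, 3.18 and 3.58 on the log2 scale), while Shh and Foxa1 had larger fold changes (4.45 and 4.13). The summed intensity of the 13 genes was 13042 to 15651 on GFP-positive and 1922 to 2865 on GFP-negative arrays. This list was chosen with earlier results of these data known, so the count describes the sort and does not test it. Noto and T were not analysed here. Because these are bulk samples, fewer cells of a type and less RNA per cell cannot be told apart.

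Snai2 was the member that differed between the sorted populations over all genes. It was lower in GFP-positive cells on both of its probe sets, while the other 8 members did not pass the test. The test was limma on log2(intensity + 32) with group as the only term and a Benjamini-Hochberg adjusted p under 0.05. A gene was read from its brightest probe set among those that reached the array's 40th percentile on at least 3 arrays. Of the 9 members 1 passed (11.1%), against 4.66% of all 12628 genes tested. Without adjustment, 1 of 9 members was higher and 3 were lower at p under 0.05 (11.1% and 33.3%), against 12.7% and 10% of all genes. Groups did not overlap for 3 of 9 members, which were Snai2, Twist2 and Esrp1. That is 33.3%, against 27.7% of all genes. With the pool of embryos as a block in the same limma fit, 4 of 9 members passed (44.4%), against 13.8% of all genes. Snai2 and Twist2 were lower there (5.99% of all genes were lower), and Vim and Esrp1 higher (7.76% of all genes were higher). Within all 3 pools 2 members were higher, Vim and Esrp1, and 4 were lower, Snai1, Snai2, Twist2 and Zeb1, against 28.4% and 24.9% of all genes. The plot of intensities by probe set gives all 20 probe sets on the 6 arrays.

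**Figure D1:**
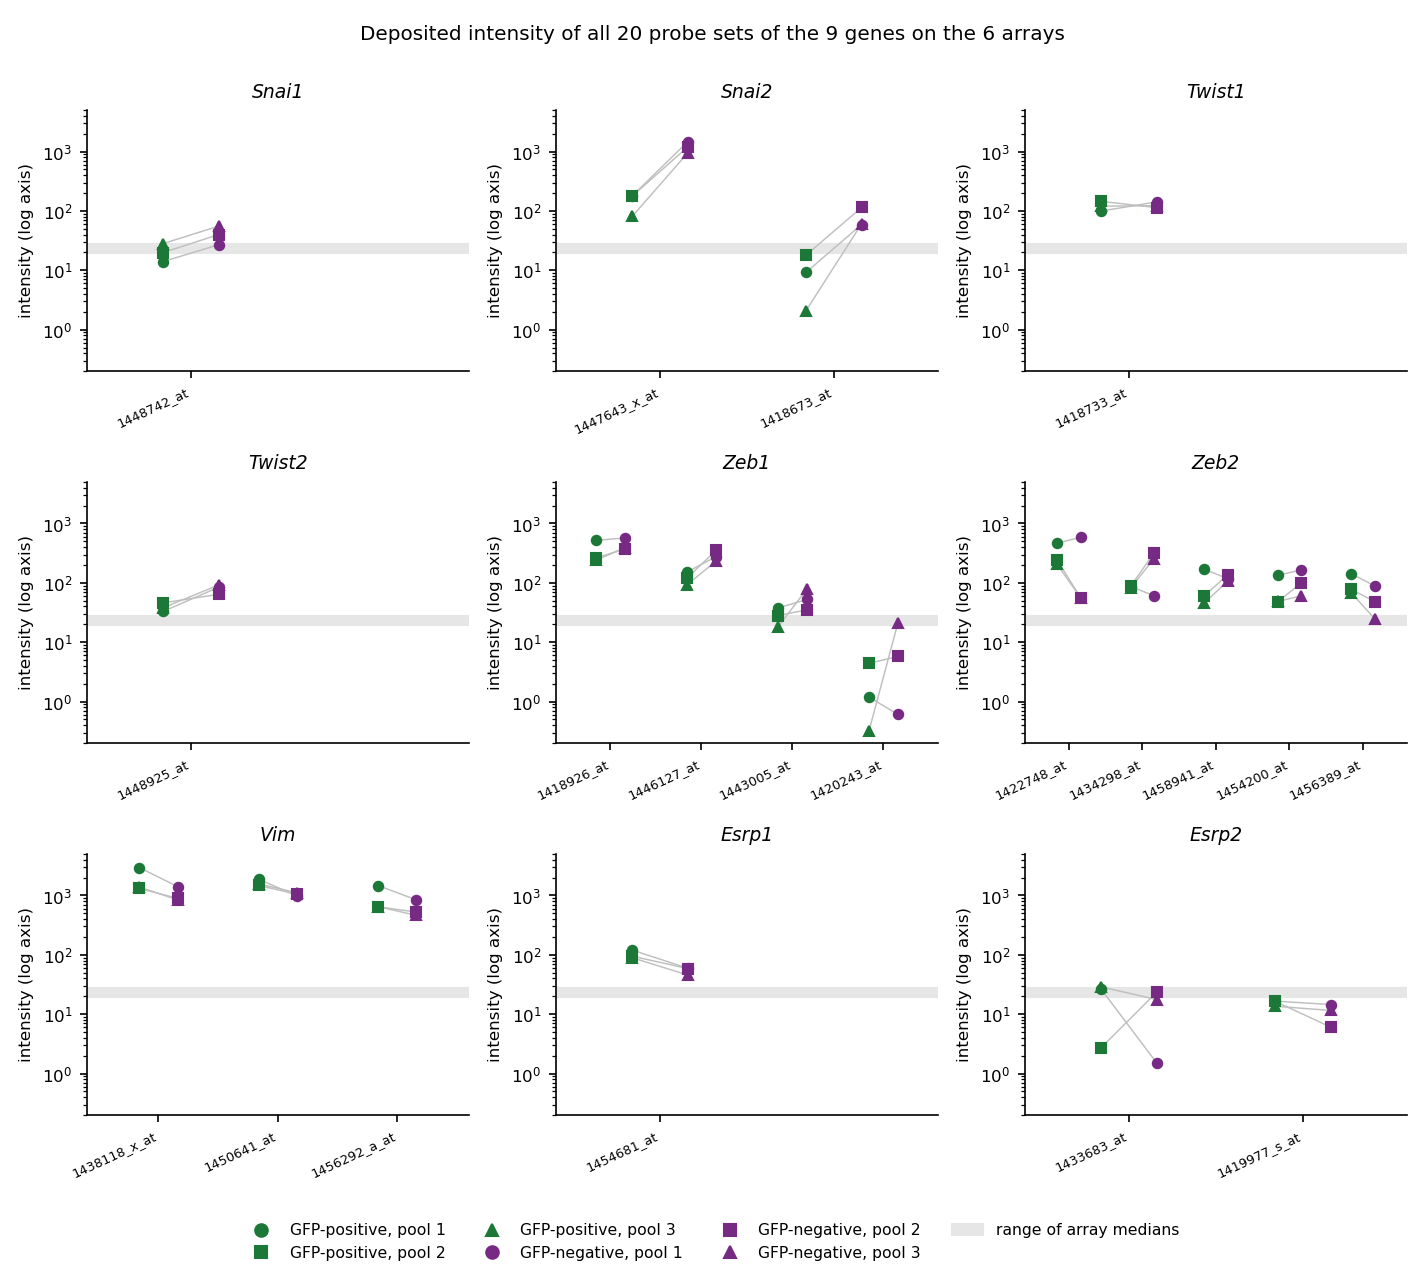
Deposited intensity (log axis) of the 20 probe sets of the 9 genes, with GFP-positive arrays in green to the left of GFP-negative arrays in purple; grey lines join the arrays of a pool, and the grey band is the range of array medians (19.8 to 28.0). Snai2 sits between 81.0 and 179 on GFP-positive and between 952 and 1469 on GFP-negative arrays for its brighter probe set, and probe sets of Zeb2 run in opposite directions.

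Snai2, also known as Slug, is a Snail family repressor known for its part in migrating neural crest and mesoderm. Its brighter probe set (1447643_x_at) read 179, 178 and 81.0 on the GFP-positive arrays of pools 1, 2 and 3, against 1469, 1200 and 952 on the GFP-negative arrays. The highest GFP-positive value was far below the lowest GFP-negative value. Intensity averaged 146 ± 56.3 in GFP-positive and 1207 ± 258 in GFP-negative cells (SD, n = 3 each). The log2 fold change was -2.83 ± 0.30 (SE), a 7.14-fold lower level on that scale, with an adjusted p of 0.00305 in limma. Within pools the difference was -2.83, -2.56 and -3.12. By size of the fold change it had rank 13 among genes with a negative fold change.

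The suffix of that probe set marks a design that can bind related sequences, and the other probe set of Snai2 carries no such suffix. This one (1418673_at) read 9.20, 17.9 and 2.08 on GFP-positive arrays, against 59.0, 114 and 60.5 on GFP-negative arrays. Here too the groups did not overlap, and all 3 GFP-positive values lay below the array medians. Its log2 fold change was -1.38 ± 0.24 (SE), with an adjusted p of 0.0321 over the 27821 probe sets in limma. The call on this dimmer probe set was lost without any 1 of the 5 arrays other than GFP-negative array 1 (adjusted p = 0.0725 to 0.190) and without pool 3 (adjusted p = 0.306), with fold changes of -1.52 to -1.15. It was too dim to be tested without pool 2. The Snai2 pair made up the 2 of 19 tested member probe sets that passed (10.5%), against 1.81% of all probe sets. With the pool as a block 5 of 19 passed (26.3%, against 9.86%), and groups did not overlap for 6 of 19 (31.6%, against 24.7%).

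Snai2 passed in 17 of 18 alternative settings, with log2 fold changes from -3.04 to -2.11. The exception was the fit without pool 2, where the value was -2.97 with an adjusted p of 0.127 and where only 0.0343% of all genes passed. Without pool 1 the value was -2.84 (adjusted p = 0.000126 in limma).

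The genes most like Snai2 over the 6 arrays were Slc38a4, an amino acid transporter gene, and Klf6, a zinc finger factor. Their log2 values correlated with those of Snai2 at r = 0.998 and 0.997 over 6 arrays that share their pools, as the closest of 12627 genes compared. Slc38a4 read 795, 760 and 559 on GFP-positive arrays, against 2346, 1904 and 1836 on GFP-negative arrays. Klf6 read 273, 270 and 228 on GFP-positive arrays, against 510, 485 and 424 on GFP-negative arrays. Its log2 fold change was -0.81, and it did not pass (adjusted p = 0.0553 in limma). In all, 103 genes correlated with Snai2 at 0.95 or more.

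Snai1, the Snail family member needed for mouse mesoderm to leave the primitive streak, was dim in both populations. Its probe set (1448742_at) read 14.0, 19.9 and 28.2 on GFP-positive arrays, against 26.9, 39.99 and 55.5 on GFP-negative arrays. Within pools the differences were -0.36, -0.47 and -0.54, but the groups overlapped and the values lay near the array medians. The log2 fold change was -0.46 ± 0.19 (SE, adjusted p = 0.212 in limma). Its 95% interval ran from -0.90 to -0.01. SNAIL1 is known to bind an E-box in its own promoter in human cells. The 250 bases before the start site of Snai1 are shown for that reason, from RefSeq on GRCm38.p6 at chr2:167537945-167538194, plus strand, with an E-box in capitals.

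Snai1: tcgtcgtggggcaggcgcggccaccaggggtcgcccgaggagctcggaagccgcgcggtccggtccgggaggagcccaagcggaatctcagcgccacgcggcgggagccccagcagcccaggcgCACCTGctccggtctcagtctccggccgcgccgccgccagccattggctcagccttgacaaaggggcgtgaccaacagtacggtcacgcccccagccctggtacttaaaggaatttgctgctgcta

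The letters searched were CAGGTG and CACCTG, which are each other's reverse complement, so a search for both covers both strands. The match in Snai1 begins 126 bases before the start site. Of the 9 members, 5 had a promoter window in the table (Snai1, Twist1, Twist2, Zeb2 and Vim), and 1 of these 5 held the letters. The share was 19.4% of all 27025 genes with a window. A match is a description of the letters and not a binding site.

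Neither Twist gene passed in the planned fit, which used every array and no block. Twist2, a basic helix-loop-helix factor of early mesenchyme, read 33.1, 46.1 and 38.1 on GFP-positive arrays, against 84.8, 64.3 and 92.3 on GFP-negative arrays. All 3 GFP-positive values were below the lowest GFP-negative value. Its log2 fold change was -0.66 ± 0.18 (SE, adjusted p = 0.0798 in limma), and with the pool as a block its adjusted p was 0.0496, just past the threshold. Over probe sets in place of genes the blocked adjusted p was 0.0549. Within pools the differences were -0.84, -0.30 and -0.83.

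Twist1, the paralogue known for cranial mesoderm and neural crest, read 99.3, 145 and 120 on GFP-positive arrays, against 142, 113 and 122 on GFP-negative arrays. The groups overlapped fully, and pools disagreed in direction (-0.41, 0.28 and -0.02). The log2 fold change was -0.05 ± 0.20 (SE, adjusted p = 0.906 in limma), with a 95% interval from -0.50 to 0.41. The sign turned, to 0.13, without pool 1. Its values lay at percentile 72.4 to 77.7 of each array, above the array medians.

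**Figure D2:**
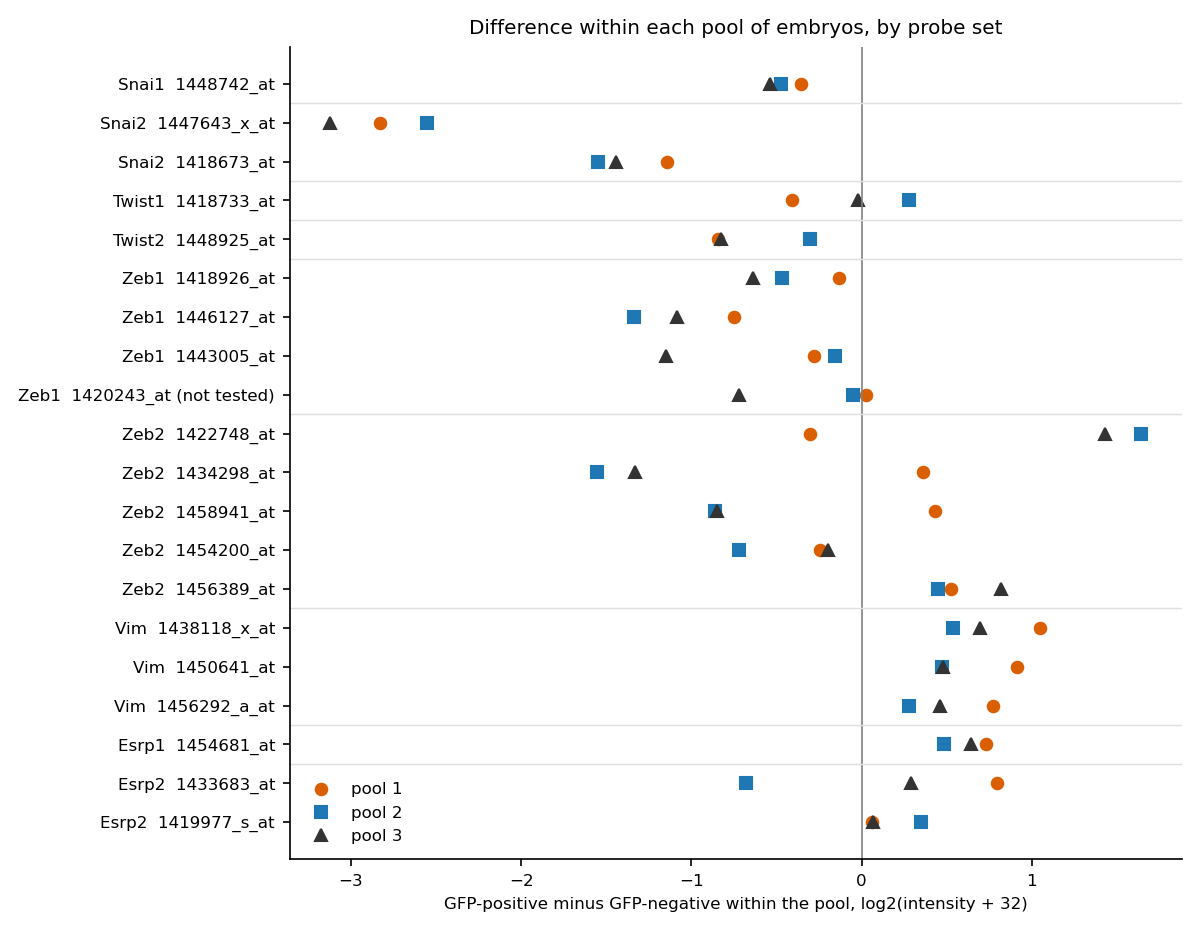
Difference of GFP-positive minus GFP-negative log2(intensity + 32) within each of the 3 pools (markers), for the 20 probe sets; the line is no difference. All 3 pools lie left of 0 for Snai1, Snai2 and Twist2 and right of 0 for Vim and Esrp1, while 3 of 5 Zeb2 probe sets have pool 1 on the other side of 0 from pools 2 and 3.

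Zeb1 and Zeb2 are large zinc finger repressors of Cdh1 with known roles in mesenchyme, neural crest and neural tissue. For Zeb1 the brightest probe set (1418926_at) read 519, 262 and 240 on GFP-positive arrays, against 571, 374 and 391 on GFP-negative arrays. The difference was negative in every pool (-0.13, -0.47 and -0.64), but both arrays of pool 1 exceeded those of the other pools and the groups overlapped. The log2 fold change was -0.41 ± 0.31 (SE, adjusted p = 0.462 in limma). Without pool 1 it was -0.55 and passed (adjusted p = 0.0135).

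A further probe set of Zeb1 (1446127_at) read 152, 120 and 92.4 on GFP-positive arrays, against 277, 351 and 231 on GFP-negative arrays. On this probe set the groups did not overlap. Its log2 fold change was -1.06 ± 0.24 (SE, adjusted p = 0.0723 over probe sets in limma), and with the pool as a block it was lower (adjusted p = 0.0140). The other tested probe set (1443005_at) gave -0.53 ± 0.23 (SE, adjusted p = 0.264), and the last (1420243_at) was too dim to be tested, at 0.314 to 4.41 on GFP-positive and 0.607 to 21.3 on GFP-negative arrays. All 3 tested probe sets of Zeb1 thus had a negative value.

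Zeb2 gave no single direction, because its probe sets opposed each other. The brightest (1422748_at) read 468, 243 and 204 on GFP-positive arrays, against 584, 55.8 and 55.8 on GFP-negative arrays. The next brightest (1434298_at) read 86.7, 88.0 and 82.7 on GFP-positive arrays, against 60.6, 321 and 256 on GFP-negative arrays. In both cases GFP-negative array 1 was on the opposite side of the GFP-positive values from GFP-negative arrays 2 and 3.

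The log2 fold changes were 0.92 ± 0.71 for the first (SE, adjusted p = 0.509 over probe sets in limma) and -0.84 ± 0.45 for the second (adjusted p = 0.349). Without pool 1 both passed, in opposite directions: 1.54 ± 0.16 (adjusted p = 0.000385) for the first and -1.44 ± 0.17 (adjusted p = 0.000536) for the second. Without GFP-negative array 1 alone they had 1.86 (adjusted p = 0.00924) and -1.44 (adjusted p = 0.00441). Over all members 11 of 17 tested probe sets passed without pool 1 (64.7%, against 30.5% of all probe sets), and 5 of 19 without GFP-negative array 1 (26.3%, against 15.2%). Of the remaining 3, 1458941_at had -0.43 ± 0.35, 1454200_at -0.39 ± 0.37 and 1456389_at 0.60 ± 0.33 (SE, adjusted p = 0.538, 0.605 and 0.356). Which part of the Zeb2 transcripts each probe set reads was not analysed here. The part of the 3′ over 5′ signal ratio, in which pool 1 stood apart, was not tested.

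Vim encodes vimentin, the intermediate filament protein of mesenchymal and many embryonic cells. It was bright in both populations, at percentile 89.5 of the array or above on all 3 probe sets. The brightest (1438118_x_at) read 2949, 1310 and 1385 on GFP-positive arrays, against 1410, 895 and 844 on GFP-negative arrays. The difference was positive in every pool (1.05, 0.53 and 0.69), although GFP-negative array 1 exceeded GFP-positive arrays 2 and 3. The log2 fold change was 0.76 ± 0.34 (SE, adjusted p = 0.235 in limma), and with the pool as a block Vim was higher (adjusted p = 0.0275). Over probe sets the blocked adjusted p was 0.0333 for this one, and 0.0544 and 0.0987 for the other 2, which did not pass.

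A Vim probe set without a suffix for shared sequence (1450641_at) read 1874, 1471 and 1563 on GFP-positive arrays, against 980, 1051 and 1110 on GFP-negative arrays. Its groups did not overlap, and its log2 fold change was 0.62 ± 0.19 (SE, adjusted p = 0.139 over probe sets). The last probe set (1456292_a_at) had 0.51 ± 0.36 (adjusted p = 0.481). All 3 Vim probe sets had the same sign in all 3 pools, opposite to the sign of Snai2.

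Esrp1, an RNA-binding protein that favours epithelial exons in transcripts such as those of Fgfr2, read 120, 94.9 and 89.3 on GFP-positive arrays, against 59.5, 58.7 and 45.6 on GFP-negative arrays. The groups did not overlap. Its log2 fold change was 0.62 ± 0.18 (SE, adjusted p = 0.0950 in limma), with a 95% interval from 0.20 to 1.04, and with the pool as a block it was higher (adjusted p = 0.0427). Within pools the differences were 0.73, 0.49 and 0.64. It was also higher without pool 1, at 0.56 (adjusted p = 0.0274).

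Esrp2, its paralogue, was dim. The brighter probe set (1433683_at) read 26.2, 2.75 and 28.8 on GFP-positive arrays, against 1.501, 23.6 and 17.7 on GFP-negative arrays, with full overlap. The other (1419977_s_at) read 13.6 to 16.6 on GFP-positive and 6.08 to 14.5 on GFP-negative arrays. Log2 fold changes were 0.14 ± 0.27 and 0.16 ± 0.14 (SE, adjusted p = 0.792 over genes and 0.559 over probe sets). Most of these values lay under the array medians, so a difference in Esrp2 was not detectable at this signal.

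Across settings, pool 1 and the way pools enter the fit moved most of these calls. Without pool 1, 6 of 8 tested members passed (75.0%), against 38.3% of all genes. Vim and Esrp1 were higher there (20.1% of all genes were), and Snai2, Twist2, Zeb1 and Zeb2 lower (18.2% of all genes were), with Zeb2 read from its second probe set and Vim from 1450641_at. Without GFP-negative array 1, 5 of 9 passed (55.6%), against 22.2% of all genes. These were Snai2 and Twist2 (lower, as were 10.9% of all genes) and Zeb2, Vim and Esrp1 (higher, as were 11.3%). Without pool 2, 0 of 8 passed in limma, although by unadjusted p (under 0.05) 2 were lower and 0 higher (25.0% and 0%), against 2.9% and 4.34% of all genes. In each other setting that left out 1 array, 1 member passed.

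**Figure D3:**
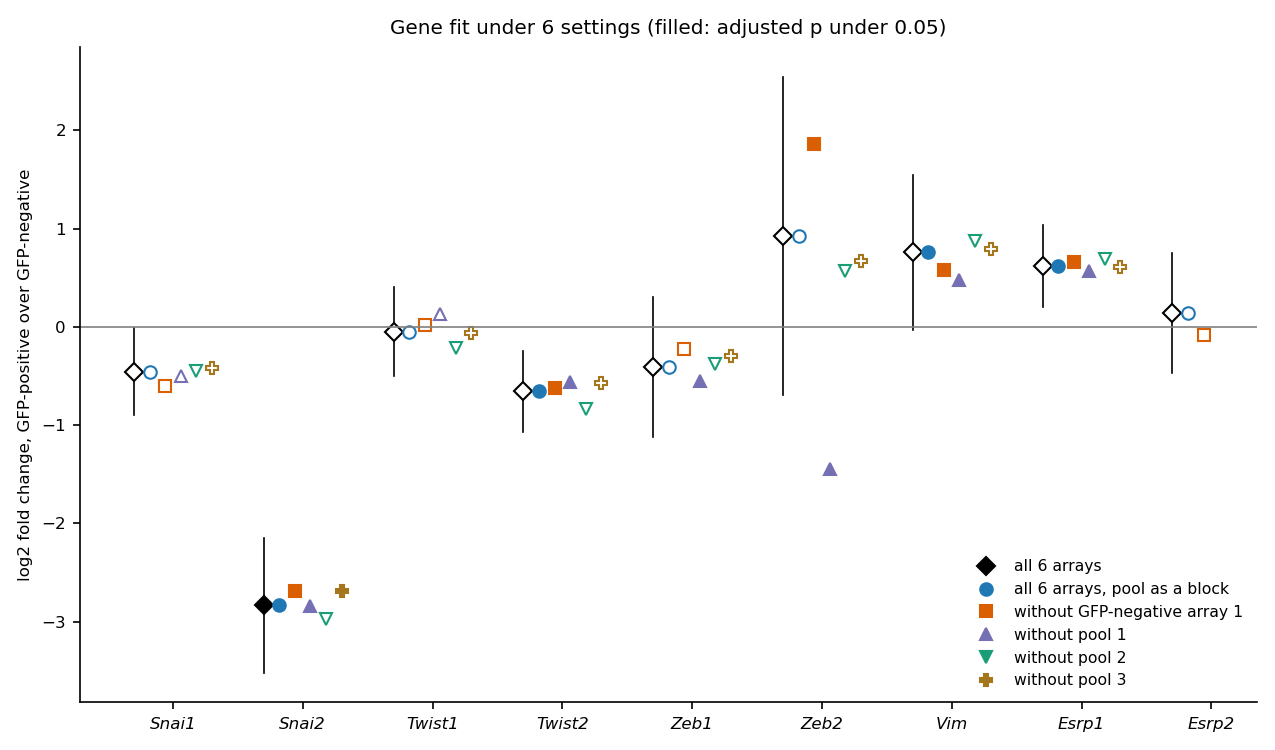
Log2 fold change of each gene, GFP-positive over GFP-negative, under 6 settings; filled markers passed at an adjusted p under 0.05, and the black bars are 95% intervals of the fit to all 6 arrays. Snai2 stays between -2.97 and -2.69 in the 6 settings drawn and is open only without pool 2, whereas Zeb2 moves between -1.44, where another probe set stands for it, and 1.86.

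Cofactors and further regulators of these transitions were mostly not separated between the populations. Of 24 listed partners and gastrulation factors, 20 were measured, of which 1, Prrx1, was lower and 19 did not pass. The background was 2.95% of genes higher and 1.71% lower. The list's median log2 fold change was 0.14, against 0.01 over all genes. Prrx1, a homeobox factor of limb and lateral mesenchyme, averaged 79.3 ± 17.9 in GFP-positive and 333 ± 43.2 in GFP-negative cells (SD, n = 3 each), giving -1.72 ± 0.21 on the log2 scale (SE, adjusted p = 0.00542 in limma). Without pool 2 or pool 3, 0 of the list passed in limma (unadjusted, 2 were lower and 1 higher at p under 0.05).

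Foxc2, a forkhead factor of paraxial mesoderm, had 1.05 ± 0.28 and Id2, an inhibitor of basic helix-loop-helix proteins, -0.99 ± 0.29 (SE, adjusted p = 0.0756 and 0.0948). With the pool as a block Foxc2, Tcf3, Sox4 and Id4 were higher (adjusted p = 0.0188, 0.0487, 0.0340 and 0.0433) and Prrx1 and Id2 lower (0.0457 for Id2). Tcf3 encodes an E protein with which Twist factors pair. Of 12 listed factors that maintain epithelium, 7 were measured and 0 passed in limma, also with the pool as a block; 1 was higher at an unadjusted p under 0.05. The smallest adjusted p values were 0.178 for Klf4 (0.58 ± 0.23), 0.223 for Elf3 (-0.57 ± 0.25) and 0.553 for Klf5 (-0.31 ± 0.29, with its other kept probe set of opposite sign). Grhl2, which activates epithelial genes, averaged 30.6 ± 11.3 in GFP-positive cells, near the array medians, and 43.1 ± 24.8 in GFP-negative cells (SD, n = 3 each).

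Among other splicing regulators, 22 of 24 were measured, 2 were lower in GFP-positive cells and 20 did not pass. The median was -0.20, against 0.01 over all genes. Both genes that fell were muscleblind genes, whose proteins bind CUG-rich RNA. Mbnl2, the other muscleblind gene on the list, had -0.10 and did not pass (adjusted p = 0.892 in limma). Of its 4 other kept probe sets, 1 had the opposite sign. Mbnl1 averaged 123 ± 58.9 in GFP-positive and 390 ± 57.2 in GFP-negative cells (SD, n = 3 each), a difference of -1.495 ± 0.28 on the log2 scale (SE, adjusted p = 0.0260 in limma), and Mbnl3 had -1.04 ± 0.24 (adjusted p = 0.0474). In limma 0 of the list were lower without any 1 array of pools 2 and 3, and without either of those pools (3 or 4 at an unadjusted p under 0.05), 6 without GFP-negative array 1, 8 without pool 1, and 1 at the larger offset or with no filter. Ptbp3, a polypyrimidine tract binding protein, had -0.76 ± 0.22 (adjusted p = 0.0932, and 0.0471 with the pool as a block). With the block 5 of the 22 were lower, the others being Nova2 (0.0440) and Rbfox2 (0.0369, with 1 of 2 other kept probe sets of opposite sign), and 1, Rbm24, was higher (adjusted p = 0.0313), although a further probe set of Rbm24 ran the other way.

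Each gene was read here from 1 probe set, and exons were not separated, so splicing itself was not measured. Of 21 genes whose transcripts Esrp proteins are known to splice, 1 was higher and 20 did not pass, with a median of 0.08. Fgfr1, an FGF receptor, averaged 267 ± 76.1 in GFP-positive and 106 ± 5.04 in GFP-negative cells (SD, n = 3 each), or 1.08 ± 0.23 on the log2 scale (SE, adjusted p = 0.0422 in limma), and 1 of its 2 other kept probe sets had the opposite sign. In limma 0 of the list passed without any 1 array of pools 2 and 3, or without either pool (unadjusted, 0 or 1 were lower and 2 to 4 higher at p under 0.05), and 4 and 7 were higher without GFP-negative array 1 and without pool 1. It was also 0 at the larger offset and with no filter (5 and 4 at an unadjusted p under 0.05). Fgfr2, the receptor whose alternative exons are the best known Esrp targets, had -0.53 ± 0.20 (adjusted p = 0.168). The integrin chain gene Itga6 had 0.90 ± 0.26 (adjusted p = 0.0948) and was higher with the pool as a block (0.0169), as were Lsr (0.0251) and Arhgap17 (0.0330, with 1 of 2 other kept probe sets of opposite sign).

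Of 33 listed epithelial genes that Snail or Zeb factors are known to repress, 31 were measured. In limma 11 were higher in GFP-positive cells (35.5%, against 2.95% of all genes) and 20 did not pass. Unadjusted, 18 were higher and 2 lower at p under 0.05 (58.1% and 6.45%, against 12.7% and 10% of all genes). With the pool as a block 17 were higher and 2 lower, against 7.76% and 5.99% of all genes. The list was chosen with earlier results of these data known, so these shares are a description. In both cases the 2 lower genes were the polarity genes Pard6b and Crb3, at -0.80 and -1.13 (adjusted p = 0.0438 and 0.0430 with the block). The 1 other kept probe set of Crb3 had the opposite sign. The median log2 fold change was 0.75, against 0.01 over all genes. Cdh1, the epithelial cadherin gene, averaged 593 ± 110 in GFP-positive and 125 ± 6.25 in GFP-negative cells (SD, n = 3 each). Its log2 fold change was 1.98 ± 0.21 (SE, adjusted p = 0.00284 in limma). Krt19, a keratin gene, and Cldn9, a claudin gene, rose by 2.88 ± 0.37 and 1.61 ± 0.21. The others that rose were Krt8, Spint1, Spint2, Cldn1, Cldn7, Ddr1, St14 and Epcam, at 1.08 to 1.72; 3 of 5 other kept probe sets of Ddr1 and the 1 other of Epcam had the opposite sign.

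This count depended on the pools and the filter. In limma 0 were higher without pool 2 and without pool 3, where 0.0343% and 0.387% of all genes passed in either direction. At an unadjusted p under 0.05, 15 and 14 were higher there (51.7% and 50%, against 4.34% and 5.08% of all genes). Without pool 1, 19 of 29 were higher, against 20.1% of all genes. With no filter 6 of 33 were higher, where 1.84% of all genes passed in either direction. Leaving out 1 of the GFP-positive or GFP-negative arrays of pools 2 and 3 left 2 to 4. The list shares Krt8, Krt18 and Krt19 with the node and notochord markers, and Epcam and Cldn6 with the gut endoderm markers. Gut endoderm markers also moved with it: 5 of 11 were higher (Foxa1, Foxa2, Apela, Trh and Epcam) and 1, Hhex, lower. Of all genes 2.95% were higher and 1.71% lower. The markers' summed intensity was 4192 to 5544 on GFP-positive and 968 to 1675 on GFP-negative arrays. Without pool 2, 1 gut endoderm marker was higher and 0 lower in limma, and without pool 3, 2 and 0. At an unadjusted p under 0.05, 7 were higher and 1 lower in each. Of the gut endoderm markers, Foxa1 and Foxa2 are on the node list too. The part of the shared markers and of gut endoderm in the result was not tested.

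E-boxes before the start sites of these epithelial genes are shown because they are the letters that Snail and Zeb proteins bind. Of the 11 genes that rose, 7 had a promoter window, and 5 of these held CAGGTG or CACCTG within the 250 bases. For the whole list the count was 18 of 24 (75.0%), against 19.4% of all genes and 19.1% of the 17492 protein-coding genes with a window. The list was chosen as known targets of factors that bind these letters, and the share is a description. A window of 30 bases around the first match follows for 4 of the genes, from RefSeq on GRCm38.p6, with the motif in capitals. Where a gene has several windows, that with the match is given; Ddr1 has 3 further windows and Cldn7 has 1, none with these letters. The windows shown were chr17:87635729-87635978 (plus strand) for Epcam, chr11:69965171-69965420 (plus) for Cldn7, chr7:29281978-29282227 (minus) for Spint2 and chr17:35702045-35702294 (minus) for Ddr1.

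Epcam: gccagtagggccCACCTGctggaggaccgg
Cldn7: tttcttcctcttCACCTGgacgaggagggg
Spint2: cgggggcggtgcCAGGTGcaggccgcagag
Ddr1: ctgccgccagcgCAGGTGaggttactggga

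Epcam, whose 2 matches begin 187 and 19 bases before the start, encodes an epithelial adhesion molecule and averaged 733 ± 202 in GFP-positive and 248 ± 95.7 in GFP-negative cells (SD, n = 3 each). Cldn7, a claudin gene with matches 97 and 57 bases before the start in 1 of its windows, averaged 260 ± 85.8 and 72.0 ± 21.4. Spint2, a protease inhibitor gene with 3 matches, averaged 701 ± 166 and 224 ± 47.7. Cldn1 and Spint1 rose without these letters in their windows.

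Mesenchymal genes did not move one way. Of 21 measured, 4 were lower, 1 was higher and 16 did not pass, with a median of -0.23 against 0.01 over all genes. The 4 that fell encode matrix proteins: Col1a1 averaged 24.3 ± 6.07 in GFP-positive and 153 ± 41.2 in GFP-negative cells (SD, n = 3 each), with -1.70 ± 0.21 (SE, adjusted p = 0.00614 in limma). Col3a1, Col1a2 and Postn had -2.44 ± 0.43, -1.79 ± 0.41 and -1.45 ± 0.33. Mmp14, a membrane metalloproteinase gene, rose by 1.35 ± 0.30 (adjusted p = 0.0428). Cdh2, the cadherin gene that replaces Cdh1 in many mesenchymal cells, had 0.62 ± 0.23 (adjusted p = 0.165, and 0.0427 with the pool as a block). Of the other fibrillar collagen genes on this list, Col5a2 had -0.60 and Col5a1 0.23, and neither passed (adjusted p = 0.367 and 0.536). Fibrillar collagen genes outside the list were not examined here. Without pool 2 or pool 3, 0 mesenchymal genes passed in limma in either direction (1 higher in both, and 4 and 5 lower, at an unadjusted p under 0.05). Without any 1 array of pools 2 and 3, 1 was lower and 0 higher (5 or 6 lower and 2 or 3 higher at an unadjusted p under 0.05), and without GFP-positive array 1, 1 was lower and 1 higher.

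**Figure D4:**
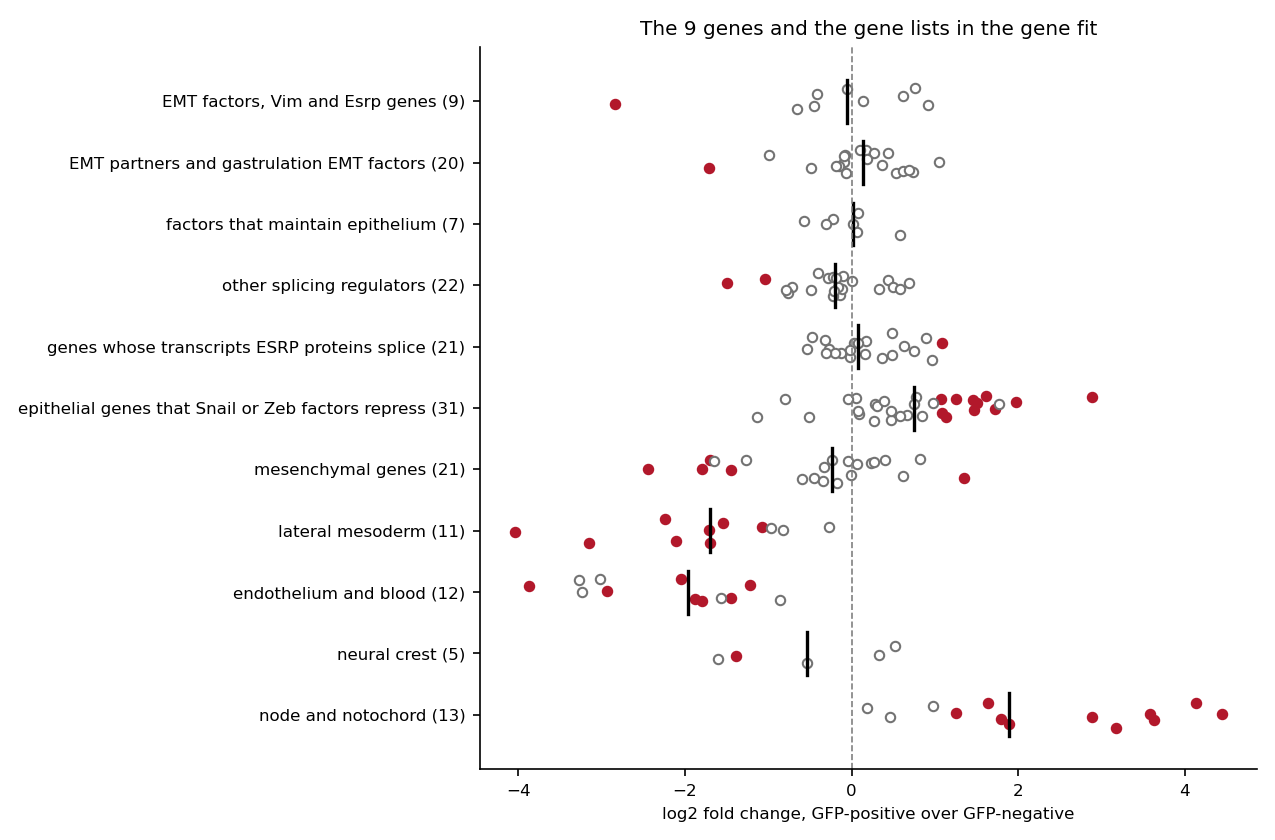
Log2 fold change, GFP-positive over GFP-negative, of the 9 genes and of the measured genes in each list (number in brackets); red points passed at an adjusted p under 0.05, black bars are medians and the dashed line is the median of all genes (0.01). Snai2 is the 1 red point among the 9 genes, epithelial genes have their median at 0.75, and lateral mesoderm and endothelium and blood have theirs at -1.70 and -1.96.

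Markers of other cell types moved with Snai2. Lateral mesoderm markers were lower for 8 of 11 measured, against 1.71% of all genes. Their summed intensity was 443 to 752 on GFP-positive and 2729 to 6126 on GFP-negative arrays. The smallest adjusted p values were those of Tbx20, Prrx1 and Gata6 (fold changes of -4.04, -1.72 and -1.54), and the median of the list was -1.70. Endothelium and blood markers were lower for 7 of 12, with sums of 508 to 6137 and 13590 to 30283. Sox7, Kdr and Etv2 had the smallest adjusted p there (-1.45, -2.94 and -1.88), and the median was -1.96. Among these markers Cdh5 and Tek averaged 10.3 and 12.7 on GFP-positive arrays, under the array medians, against 46.4 and 177 on GFP-negative arrays. Of 5 measured neural crest markers 1, Tfap2a, was lower and 4 did not pass (Ets1 had -1.61, adjusted p = 0.1198), with sums of 608 to 659 and 733 to 1488.

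The neural crest gene Sox10 averaged 20.8 ± 3.99 in GFP-positive cells, near the array medians, and 46.5 ± 22.0 in GFP-negative cells (SD, n = 3 each). Its log2 fold change was -0.54 (unadjusted p = 0.0377, adjusted p = 0.193 in limma). No marker was listed at 0. Surface ectoderm markers were lower for 4 of 8 (Tfap2a, Dlx5, Trp63 and Gata3), and of 9 neural plate markers 1, Nkx1-2, was lower, followed by Pax6 and Olig3 (adjusted p = 0.0676 and 0.0802). Presomitic and somite markers went the other way, with 8 of 14 higher, against 2.95% of all genes. Their sums were 6816 to 7702 on GFP-positive and 2500 to 3034 on GFP-negative arrays. Pcdh8, Ripply2 and Foxc1 had the smallest adjusted p among them (1.89, 1.496 and 1.26). The part of these cell types in the lower Snai2 was not tested. These marker counts depended on the pools as well: without pool 2, in limma, 0 lateral mesoderm, 0 endothelium and blood and 0 presomitic markers passed (7, 11 and 10 at an unadjusted p under 0.05), and without pool 3 the counts were 1, 1 and 0 (7, 12 and 9). Without GFP-positive array 2 or 3, 2 lateral mesoderm markers were lower in each case. Endothelium and blood markers numbered 4 and 2, and presomitic markers 2 and 1, in these settings. Without GFP-negative array 2 or 3 the lateral mesoderm counts were 3 and 5, those of endothelium and blood 2 and 3, and those of presomitic markers 1 and 2. Node and notochord markers numbered 2 without pool 2 and 6 without pool 3, and surface ectoderm markers 0 and 1 (3 lower in each at an unadjusted p under 0.05).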

How the data were processed

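The authors deposited linear intensities of 1-colour arrays, made with GCOS 1.4 per the submitters' processing notes, from RNA amplified in 2 rounds per the labels' protocols. The authors' deposited intensities share a mean of 150 once the top and bottom 2% are trimmed. Of 45101 probe sets (64 controls), 34945 had 1 symbol, 932 several, and 9160 were unnamed here. The annotation is old, and no symbol needed an update. No detection calls were used.

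Filter, offset and fit are as the report gives them, with limma 3.58.1 in R 4.3.3 (lmFit, eBayes with a variance trend), adjusted over all 27821 probe sets or 12628 genes. The fit was run on simulated data with known changes and independent noise. That run checks the code and does not bear on the calls made here. Figures used Python 3.11.15. Errors of fold changes are standard errors, and fold changes on log2(intensity + 32) understate the change of dim genes.

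Per the labels, arrays with 1 number came from the same pooled embryos and are therefore pairs. Deviations from group means correlated at 0.542, 0.286 and 0.436 within pools 1, 2 and 3, and at -0.523 to 0.380 across different pools. The value of pool 2 lay inside the range across pools. The fit without the block was the planned one. Members and gene lists were chosen with earlier results of these data known. Named from each list are the 3 genes with the smallest adjusted p, genes behind small counts, and, for a called member, the 2 genes of highest Pearson r over the arrays. Cdh2, Grhl2, Cdh5, Tek and the E-box sites of epithelial genes were chosen after values were seen. Alternatives were a smaller and a larger offset, quantile normalization, no filter or the 60th percentile, the variance model, the pool as a block, the mean over probe sets, and each array or pool left out. One of the E-box sites is not reported here.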

Additional observations from a re-analysis of the deposited data

How the results depend on the processing

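Over all 6 arrays, 0 members were higher and 1 lower by gene, and 0 and 2 by probe set; over all genes the counts were 372 and 216. The replicate block for pools gave 2 higher and 2 lower members, 2 higher member probe sets, and 980 and 757 genes. The block ended no member's call. With no filter, 233 genes were higher and 101 lower and 1 member probe set was lower, as it was at the larger offset (1). Leaving out an array or a pool gave 0 to 3 higher and 0 to 4 lower members, 0 to 5 higher and 0 to 6 lower member probe sets, and 4 to 2369 higher and 0 to 2137 lower genes. The lowest gene counts came without pool 2, the highest without pool 1. The block without pool 1, chosen after seeing the data, gave 2 higher and 5 lower of 8 tested members (87.5%), against 44.9% of all 11762 genes. By probe set it gave 5 higher and 9 lower of 17 tested. Over all genes 2727 were higher and 2553 lower. This fit leaves 1 residual degree of freedom per gene. Signs turned for Twist1 (-0.21 to 0.13 over left-out arrays and pools, 0.13 without pool 1), for Zeb2 (-0.027 as the mean over probe sets; -1.44 to 1.86 over left-out arrays and pools, with -1.44 without pool 1, where another probe set was the brightest) and for Esrp2 (-0.079 without GFP-negative array 1, up to 0.40 without GFP-positive array 2); the cause was not tested. The dimmer Snai2 probe set lost its call in limma at the larger offset (-0.57, adjusted p = 0.0521) and with no filter (-1.38, adjusted p = 0.0686). At the smaller offset its fold change was -2.32 (adjusted p = 0.0334). Nothing can be said of differences within background signal, which covers most values of Esrp2 and some of Snai1. All 3 GFP-positive values of the dimmer Snai2 probe set also lay below the array medians, so the size of its fold change is uncertain.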
